A study of Bos taurus with 27 samples.

Results

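The WNT pathway genes described here are 44 genes that cover the known parts of the pathway, namely its ligands, receptors, inhibitors, signal carriers and transcription factors. They were taken by symbol from the table of raw read counts, which holds 32637 genes, and all 44 were found. Their levels are given as CPM, the reads of a gene in a pool scaled to a total of 1000000 counted reads.

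WNT proteins are secreted ligands that bind a Frizzled receptor and an LRP co-receptor on the receiving cell. Without a ligand, a destruction complex of AXIN, APC and GSK3 kinases marks β-catenin for breakdown, and with a ligand, Dishevelled proteins hold that complex back so that β-catenin reaches the nucleus and acts with TCF/LEF factors. In the blastocyst, β-catenin is also a part of the cell junctions that seal the trophectoderm, the outer layer that will form placenta, around the inner cell mass with its epiblast and hypoblast.

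The study compared bovine blastocysts that developed from oocytes matured in vitro with fluid of more mature preovulatory follicles (greater maturity) with those from oocytes matured with fluid of less mature ones (lesser maturity). Oocytes came from abattoir ovaries, semen came from the same bull, embryo culture was the same, and the blastocysts shared 1 stage code and 1 quality code. Each of the 27 libraries held RNA of a pool of 2 whole blastocysts, so every value is a mixture of trophectoderm, epiblast and hypoblast, and a lower level in fewer cells cannot be told apart from less RNA per cell. The sample labels used here give no maturation group or fertilization replicate for any pool, so no groups were compared. The part of the follicular fluid and of the replicate in any spread below therefore cannot be told apart here from differences between embryos. The paper, in which the groups were known, reported AXIN2 and FZD6 of the 44 genes as more abundant in the greater maturity group.

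The pools held from 10517606 to 44253564 counts (median 22293594). At these depths 1 CPM stood for between 10.5 and 44.3 counts, and the 3 counts taken as the limit of detection stood for between 0.0678 and 0.285 CPM, which covers counting error only. All 12 trophectoderm markers examined passed the filter on low levels, as did 10 of 11 epiblast markers in the table, and 9 of 12 hypoblast markers, with medians of 712 CPM for FN1, 211 CPM for GATA6, 38.2 CPM for PDGFRA and 20.1 CPM for HNF4A. The hypoblast factors SOX17 and FOXA2 had medians of 0 CPM, and GATA4 was below the filter. Pools 9 and 31 stood apart in the marker lists and were singled out after their values were seen. Pool 9 had the lowest sum of 12 hypoblast markers at 399 CPM, against a median of 1089 CPM, and the highest sum of the leukocyte list at 112 CPM. Its sum of the cumulus and granulosa list, 580 CPM, was also the highest, but HSD3B1 alone made up 517 CPM of it. The other retained genes of that list were mixed in pool 9. CYP11A1, STAR and CYP19A1 were above their medians, with CYP11A1 at 37.3 CPM against 14.9 CPM. TNFAIP6 and the FSH receptor gene FSHR were below theirs, with FSHR at 7.23 CPM against 8.89 CPM. Pool 31 had the lowest sum of the leukocyte list. It also had the highest sum of the trophectoderm list, 41871 CPM, but KRT8 and KRT18 made up 26270 and 12064 CPM of it. CDX2 was also highest in pool 31, at 9.42 CPM, whereas TFAP2C, at 156 CPM, was second lowest. The sum of the epiblast list, 300 CPM, was the lowest of all pools. There POU5F1 was lowest, at 109 CPM against a median of 399 CPM, whereas SALL4 was highest, at 67.8 CPM. The number of genes detected in pool 31, 15491, was the lowest of all pools. By the marker scores described below, pool 14 was highest for trophectoderm and pool 28 lowest for epiblast.

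Of the 44 genes, 28 reached 1 CPM in at least 12 of the 27 pools and are called retained. The same filter kept 37.7% of all genes in the table and 50.0% of those with any count. Of the 28 retained genes, 12 were at or above 1 CPM in every pool, whereas 72.6% of all retained genes were. Another 8 of the 44 genes did not reach 1 CPM in any pool. The sum of all 44 genes ranged from 516 to 808 CPM (median 681), and most of it was β-catenin. The libraries read the 3′ ends of transcripts, so CPM was not divided by length, and the levels of different genes compared below also depend on how well each 3′ end was captured and annotated.

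**Figure D1:**
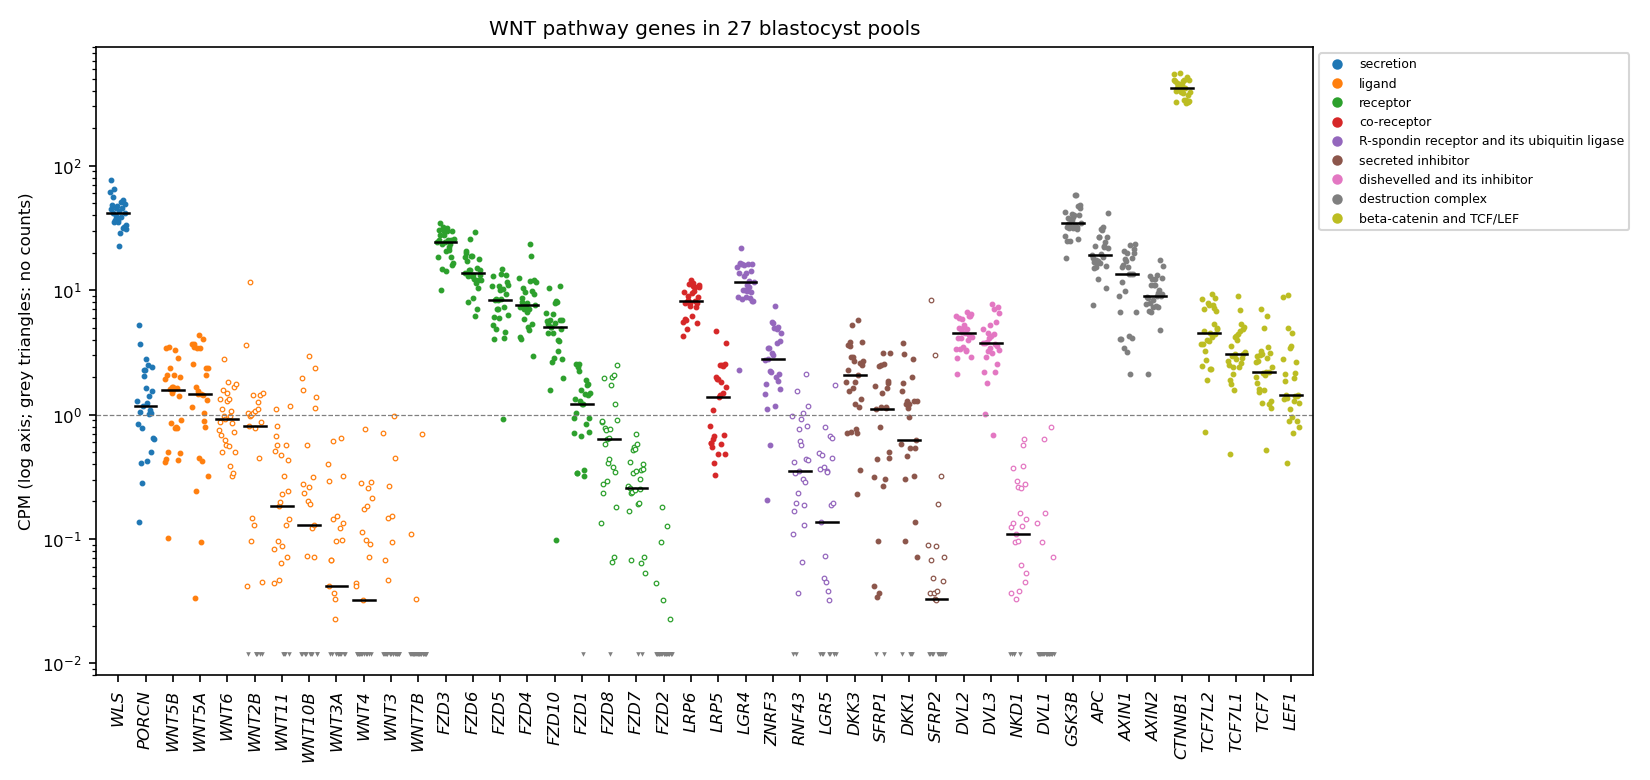
Levels of the 44 WNT pathway genes, on a log axis in CPM, with 1 point per blastocyst pool, a black bar at the median where it is above 0, filled points for the 28 retained genes, open points for the other 16 and grey triangles for pools with no count. CTNNB1 lies far above all others, and 8 of the 10 ligands lie mostly under the dashed line at 1 CPM.

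The gene for β-catenin, CTNNB1 (chromosome 22 from 13799069 to 13847827, build ARS-UCD2.0), ranged from 318 to 554 CPM (median 418). It was above every other gene of the 44 in all 27 pools, and its highest pool was only 1.74 times its lowest. Its median lay at percentile 96.5 of the medians of all retained genes.

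All 4 genes of the destruction complex were retained and were at or above 1 CPM in every pool. GSK3B, the kinase that phosphorylates β-catenin, had a median of 34.5 CPM, and its highest pool, at 58.4 CPM, was 3.25 times its lowest. APC, the scaffold lost in many colon tumours, ranged from 7.65 to 41.4 CPM (median 19.2). AXIN1 (chromosome 25 from 313099 to 356164), the limiting scaffold in many cells, ranged from 2.14 to 23.5 CPM (median 13.4). GSK3B was above both AXIN genes in all 27 pools, whereas AXIN1 and APC overlapped, with APC higher in 22 pools. AXIN2 (chromosome 19 from 62212833 to 62241542), a scaffold that is itself switched on by β-catenin and is widely read as a gauge of pathway activity, ranged from 2.13 to 17.6 CPM (median 8.93). The lowest AXIN2 level was that of pool 9, and the next was 4.82 CPM. AXIN1 exceeded AXIN2 in 18 of 27 pools, so their order was not fixed from pool to pool.

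The 4 TCF/LEF factors, which bring β-catenin to DNA, were all retained but were low, with a summed level between 7.21 and 20.5 CPM. TCF7L2 ranged from 0.726 to 9.32 CPM (median 4.56), and was the highest of the 4 in 17 pools. TCF7L1 (chromosome 11 from 49674154 to 49877662), known mainly as a repressor in pluripotent cells, ranged from 0.482 CPM in pool 9 to 8.96 CPM in pool 31 (median 3.04). It was the highest of the 4 in 5 pools, and in pool 31 it made up 71.6% of their sum. TCF7, a factor well known from T cells, ranged from 0.522 to 7.10 CPM (median 2.2). LEF1 (chromosome 6 from 17083384 to 17200676) ranged from 0.407 to 9.17 CPM (median 1.44). Its 2 highest pools, 21 and 1 with 8.78 CPM in the latter, stood well above the next, at 4.94 CPM, and LEF1 was the leading factor in 3 pools.

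Among the 9 Frizzled receptors, 6 were retained and FZD3 led. FZD3 ranged from 9.98 to 34.4 CPM (median 24.3), and was the highest Frizzled in 23 pools with a median share of 38.3% of their sum. FZD6 (chromosome 14 from 61176387 to 61212860) ranged from 6.23 CPM in pool 31 to 29.4 CPM in pool 32 (median 13.7). It was above FZD3 in 3 pools.

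FZD5 and FZD4 had similar medians, at 8.37 and 7.63 CPM, and FZD5 was the higher in 13 of 27 pools. FZD5 had between 0.918 CPM in pool 33 and 14.8 CPM in pool 31. FZD4 had between 2.97 CPM and, again in pool 33, 23.5 CPM. Pool 33 thus held the lowest FZD5 and the highest FZD4 level, and it was the only pool in which FZD4 led all Frizzled genes. FZD10 had between 0.0978 CPM in pool 31, which was 3 counts, and 10.8 CPM in pool 38, with a median of 5.08 CPM. All pools but pool 31 were above 1.5 CPM. FZD1 was near the filter with a median of 1.23 CPM, while FZD8, FZD7 and FZD2 were not retained, and FZD2 had no count in 21 pools.

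**Figure D2:**
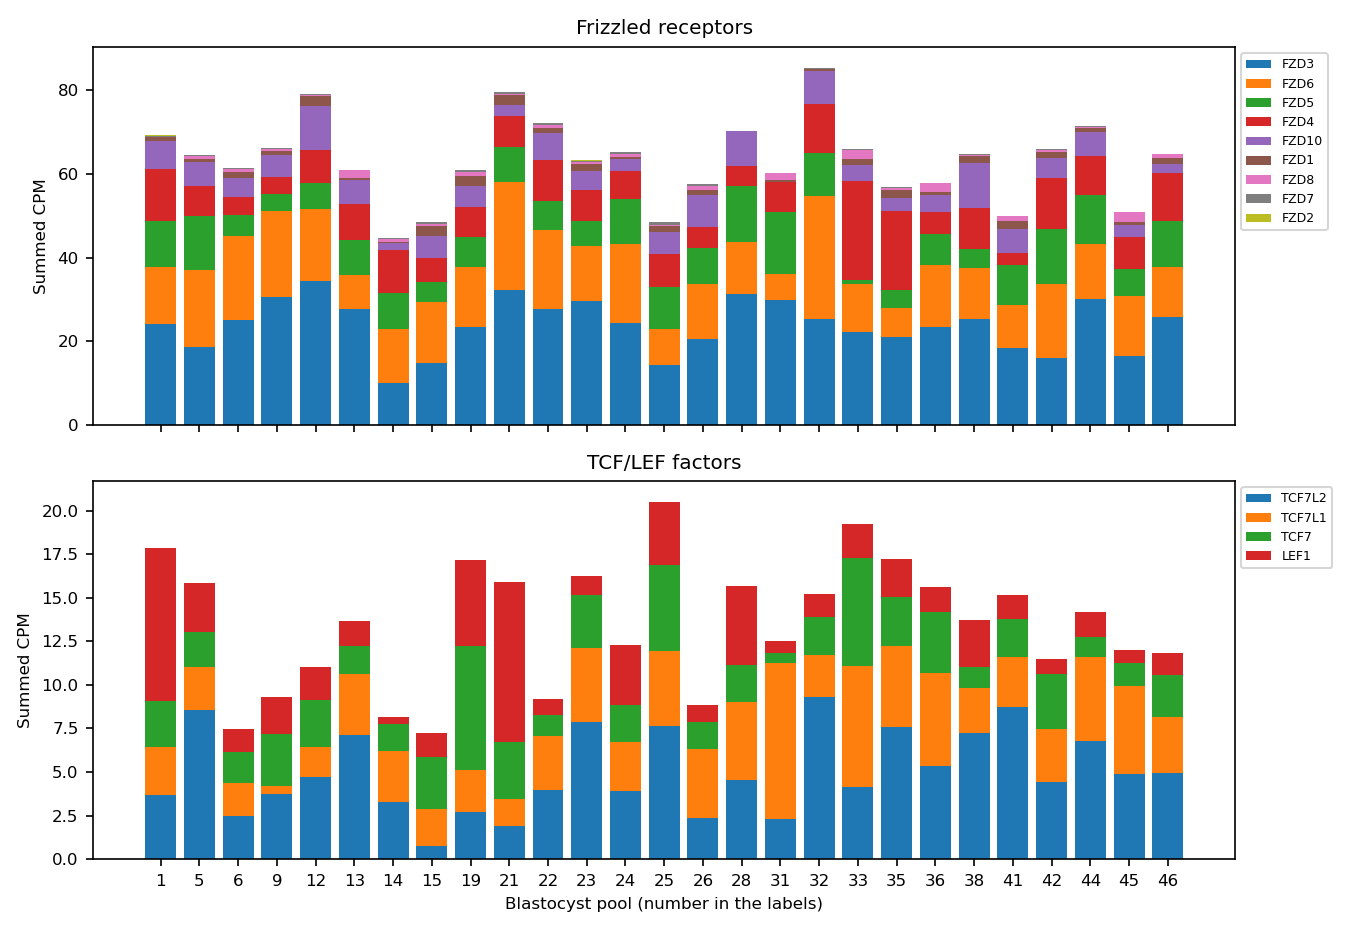
Summed CPM of the 9 Frizzled receptor genes (top) and of the 4 TCF/LEF genes (bottom) in each of the 27 blastocyst pools, as stacked bars from 0. FZD3 and FZD6 make up the base of nearly every Frizzled bar, while the leading TCF/LEF gene changes between pools, with LEF1 large in pools 1 and 21 and TCF7L1 in pool 31.

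The co-receptors LRP5 and LRP6, which pair with Frizzled, differed in level in every pool. LRP6 ranged from 4.31 to 12.0 CPM (median 8.19), and LRP5 ranged from 0.329 to 4.71 CPM (median 1.38). LRP6 was the higher in 27 of 27 pools. LGR4, a receptor of the R-spondins that raise a cell's sensitivity to WNT, ranged from 2.27 CPM in pool 9 to 21.8 CPM in pool 14 (median 11.6). The next lowest pool had 8.20 CPM, so pool 9 was alone at the bottom. LGR5, its relative known from intestinal stem cells, had a median of 0.138 CPM and was below LGR4 in all 27 pools. Of the 2 ubiquitin ligases that remove Frizzled receptors from the membrane, ZNRF3 was retained, from 0.207 CPM in pool 9 to 7.40 CPM in pool 31 (median 2.78). RNF43 was not, with a median of 0.353 CPM, and ZNRF3 was above RNF43 in 24 pools.

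Dishevelled proteins carry the signal from Frizzled to the destruction complex. DVL2 had between 2.13 and 6.61 CPM and DVL3 between 0.685 and 7.80 CPM, with medians of 4.56 and 3.79 CPM. DVL2 was the higher in 17 of 27 pools, so the pair overlapped. DVL1 had no count in 21 pools and did not exceed 0.789 CPM, and NKD1, an inhibitor of Dishevelled, did not exceed 0.632 CPM.

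WNT ligands were low, although the gene that lets cells release them was not. WLS, the carrier that takes WNT proteins to the membrane, ranged from 22.7 to 76.8 CPM (median 41.8), the second highest median of the 44 genes. PORCN, the enzyme that attaches the lipid WNT proteins need, ranged from 0.138 to 5.21 CPM (median 1.17). WLS was above PORCN in 27 of 27 pools, by between 8.65 and 354 times. Of the 10 ligand genes, only WNT5A and WNT5B were retained, both best known for signalling that does not run through β-catenin. WNT5B ranged from 0.102 to 3.49 CPM (median 1.57). WNT5A had between 0.0336 CPM, which was 1 count, and 4.34 CPM, with a median of 1.46 CPM. WNT5B was the higher of the pair in 11 of 27 pools, so their order was not fixed.

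WNT6 was just outside the filter, at 1 CPM or more in 11 pools with a median of 0.929 CPM, and was detected in every pool. WNT2B reached 1 CPM in 10 pools, and its highest level, 11.7 CPM in pool 14, was the highest of any ligand in any pool. WNT2B overlaps ST7L, a gene with a median of 5.17 CPM, and WNT5B overlaps FBXL14 with 11.2 CPM. Whether the counting used strand is not given in the sources used here, so reads of these overlapping neighbours cannot be told apart. WNT10B and WNT11 reached 1 CPM in 6 and 2 pools. WNT3, WNT3A, WNT4 and WNT7B, of which WNT3A is the standard ligand for turning on β-catenin in culture, did not reach 1 CPM in any pool and had no count in 18, 10, 13 and 24 pools.

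The secreted inhibitors were also low and differed widely among pools. DKK3, a relative of the LRP inhibitor DKK1, ranged from 0.228 to 5.73 CPM (median 2.08) and was above DKK1 in 23 pools. SFRP1, which binds WNT proteins outside the cell, ranged from 0 to 3.15 CPM (median 1.11). DKK1 itself (chromosome 26 from 6846855 to 6849305) ranged from 0 to 3.75 CPM (median 0.628), and passed the filter with exactly the 12 pools needed. SFRP1 and DKK1 were each at or under the limit of 3 counts in 6 pools. SFRP2 had 8.34 CPM in pool 12 and 3.03 CPM in pool 23, whereas every other pool was under 1 CPM and 12 pools had no count.

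In the order of medians, β-catenin was followed by WLS, GSK3B, FZD3, APC, FZD6, AXIN1, LGR4, AXIN2 and FZD5. Many neighbours in this order did not differ beyond their spread over pools. FZD6 was above AXIN1 in 13 of 27 pools, AXIN1 above LGR4 in 14 and FZD5 above LRP6 in 13. The clearer steps were those from CTNNB1 to WLS, in 27 of 27 pools, and from GSK3B to FZD3, in 24.

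For 10 of the 16 genes that were not retained, more than 15% of the summed CPM came from 1 pool, which was so for 83.8% of all genes with a count that were not retained. Pool 35 held 82.9% of WNT7B, which was 11 counts, and pool 12 held 66.9% of SFRP2, which was 247 counts. DVL1 had 42.0% in pool 38, WNT2B 38.3% in pool 14, FZD2 36.1% in pool 23 and WNT3 33.6% in pool 33. WNT4 had 28.7% in pool 28, LGR5 23.2% in pool 45, WNT10B 21.4% in pool 24 and WNT3A 19.6% in pool 36. Of these, SFRP2, WNT2B, WNT10B and LGR5 reached 1 CPM in any pool, and the others were at no more than 16 counts in their highest pool. None of the 28 retained genes had such a pool, and 3.14% of all retained genes did. The 10 genes peaked in 10 different pools.

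A second list held 108 further genes of the pathway, of which 106 were in the table and 64 were retained. PPP2CA, a phosphatase subunit that acts on the destruction complex, had a median of 619 CPM, CSNK1A1, the kinase that primes β-catenin, 340 CPM and CSNK1D 64.3 CPM. Of this role, 17 of 18 genes were retained. Of 19 nuclear co-factors, 16 were retained, led by the co-repressor CTBP2 with 141 CPM, the chromatin remodeller SMARCA4 with 82.3 CPM and the β-catenin antagonist CBY1 with 49.2 CPM. MESD, the chaperone of LRP5 and LRP6, had 190 CPM, the receptor RYK 38.2 CPM and the co-receptor PTK7 2.74 CPM.

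Outside the cell, RSPO3 was the only R-spondin retained of 4, at 1.39 to 47.7 CPM (median 7.42), and pool 13 held 18.2% of its sum. DKKL1 with 18.5 CPM, SOSTDC1 with 4.35 CPM and KREMEN2 with 2.96 CPM led 5 retained of 13 other inhibitors. WNT10A, with a median of 1.29 CPM, was the only ligand retained of 9 others, and WNT9B had 0.877 CPM and WNT16 0.0612 CPM. Of 20 Dishevelled regulators and planar polarity genes, 12 were retained, led by DAAM1 with 19.3 CPM, PRICKLE3 with 17.6 CPM and INVS with 15.6 CPM. Of 13 genes known as targets of β-catenin in other tissues, 8 were retained, led by TBX3 with 123 CPM, BAMBI with 22.1 CPM and JUN with 18.5 CPM. MYC, ASCL2 and SP5 were also retained, with medians of 5.68, 1.44 and 1.36 CPM, while CCND1 and TBXT were not.

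The biological coefficient of variation (BCV) of a gene measures its variation among pools beyond counting error. To ask which genes varied more than others of similar level, each BCV was divided by the trend at that abundance. A gene was called at 1.5 times the trend or more. Of the 28 retained genes, 2 were called, AXIN1 and DKK1, beside 6.95% of all retained genes. The AXIN1 ratio was 1.55 with a BCV of 0.621, and that of DKK1 was 1.54 with a BCV of 1.19. SFRP1 was just outside at 1.48. The BCV was below the trend for 20 of the 28 genes and for 71.5% of all retained genes, with a median ratio of 0.901 for the 28 and 0.814 for all. With the gene-wise dispersion of DESeq2 the ratio was 1.66 for AXIN1 and 1.05 for DKK1, so DKK1 was called with edgeR only.

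AXIN1 was low in a number of pools and high in the rest. Its 7 lowest pools, which were 32, 24, 15, 9, 6, 38 and 28, had between 2.14 and 4.28 CPM, 2 more had 6.69 and 6.73 CPM, and the other 18 had between 9.05 and 23.5 CPM. The levels in the low pools rested on 33 counts or more, above the detection limit. Pool 9 was among the low pools but pool 31, at 13.4 CPM, was not. Against each of the cell type scores, the total count and the RNA measures described below, the rho of AXIN1 was between -0.0989 and 0.226, and none of these had an unadjusted permutation p below 0.25. An uncharacterized gene that overlaps AXIN1 had a median of 0.421 CPM.

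At the other end, DVL2 had a BCV of 0.237, only 0.414 times the trend and at percentile 1.19 of all retained genes. LRP6 followed at 0.560 times and CTNNB1 at 0.703 times the trend.

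**Figure D3:**
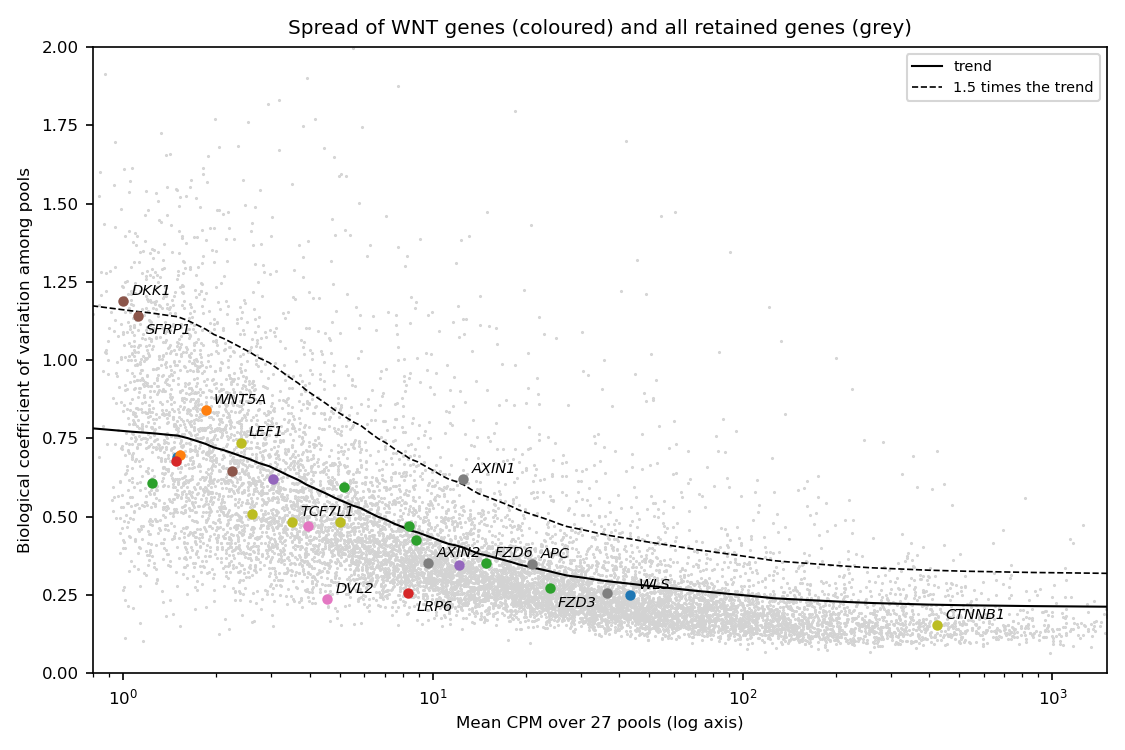
BCV among the 27 pools against mean CPM (log axis) for all 12310 retained genes in grey, with the 28 retained WNT pathway genes in the colours of their roles and the trend as a line; genes beyond the axes are not drawn. AXIN1 and DKK1 lie on or above the dashed line at 1.5 times the trend, and DVL2 and LRP6 lie far below the trend.

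Whether genes of the pathway rose and fell together over the pools was asked with Spearman's rho. Each retained gene was set against all 12309 other retained genes with a permutation test over pools (two-sided, 100000 permutations, smallest possible p 1e-05), adjusted over all of them by Benjamini-Hochberg, and a pair of WNT genes was called when it passed an adjusted p of 0.05 from both sides. Of 378 pairs, 1 was called, FZD6 with TCF7L1, and over all tests of the 28 genes 0.27% passed. The 378 pairs had a median absolute rho of 0.179, beside 0.164 for the 28 genes with all retained genes, and 217 were positive and 161 negative. An unadjusted permutation p of 0.05 was reached by 12.7% of the pairs and by 10.5% of all tests of the 28 genes.

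**Figure D4:**
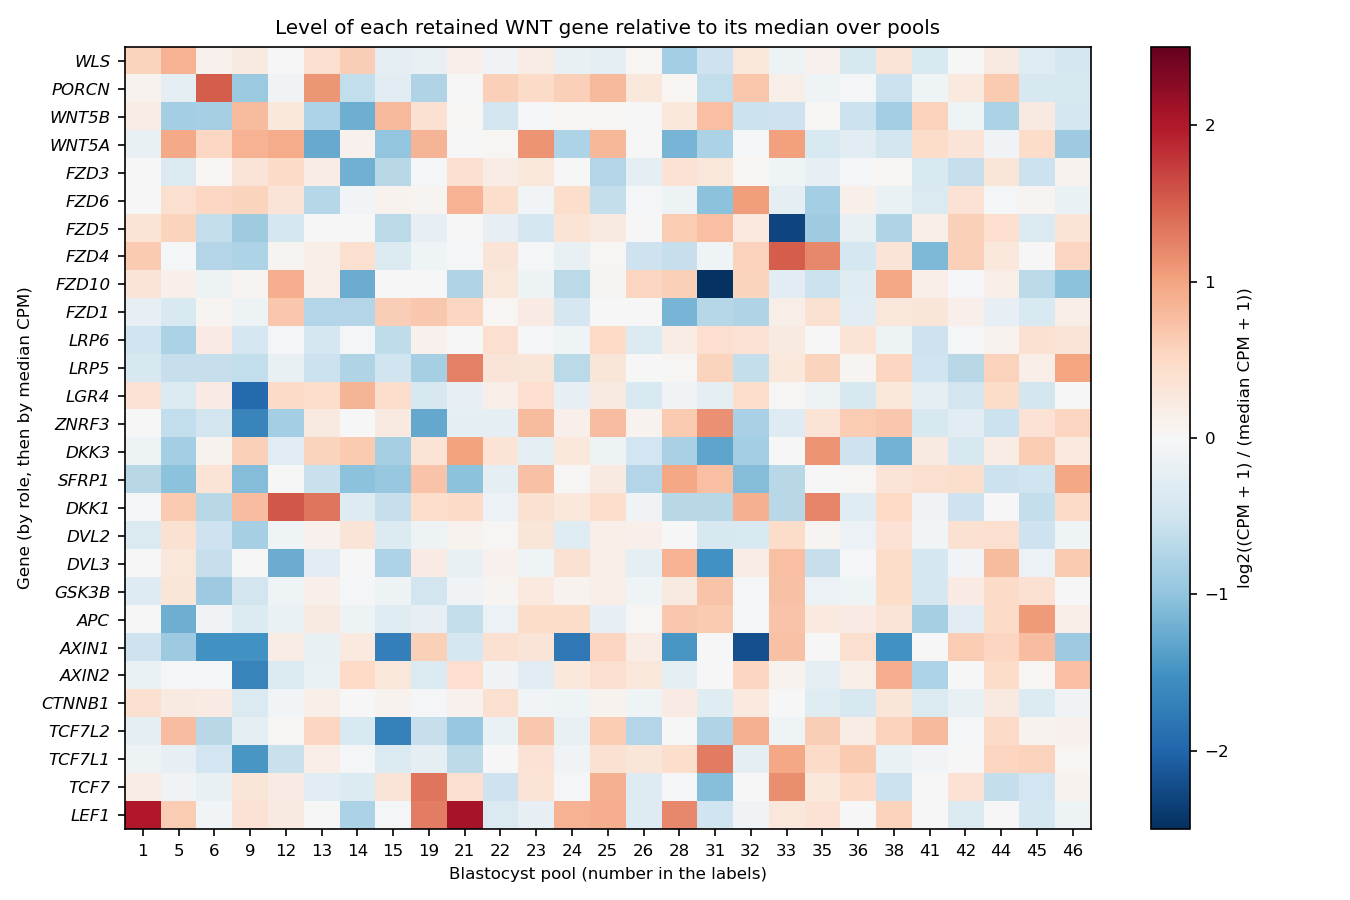
Log2 ratio of each retained WNT pathway gene (rows) to its own median over the 27 pools (columns), with 1 added to both CPM values; the colour scale ends at 2.5 in either direction. Rows show few shared patterns. Dark cells include AXIN1 in pools 24 and 32, FZD10 in pool 31, FZD5 in pool 33 and LEF1 in pools 1 and 21. In pool 9, LGR4, AXIN2 and ZNRF3 are each at their lowest.

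FZD6 was lower in the pools in which TCF7L1 was higher. The highest FZD6 levels, 29.4 and 25.9 CPM in pools 32 and 21, were in pools with 2.39 and 1.57 CPM of TCF7L1, and the lowest, 6.23 CPM in pool 31, was in the pool with the most TCF7L1. Spearman's correlation coefficient was -0.661 (permutation p = 0.00036, adjusted p = 0.0360 from FZD6 and 0.0151 from TCF7L1, n = 27 pools). Pearson's r of log2(CPM + 1) was -0.657 (permutation p = 0.00034, adjusted p = 0.0406), and without the 2 pools farthest from the median it was -0.645 by FZD6 and -0.568 by TCF7L1. Without pool 9 rho was -0.624 with an adjusted p of 0.0739, and without pool 31 it was -0.620 with an adjusted p of 0.0714, so in each case the pair no longer passed from both sides.

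TCF7L1 was the WNT gene with the most partners, a fact noticed after its values were seen. From TCF7L1, 569 of 12309 genes were called, which is 4.62%, 364 of them with positive and 205 with negative rho. Without pool 9 there were 325, without pool 31 there were 360, and with r there were 1033. Of the 27 other retained WNT genes 5 were called. FZD6 had a negative rho and 4 had a positive rho, namely APC, ZNRF3, GSK3B and AXIN1.

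APC rose with TCF7L1 with a rho of 0.723 (permutation p = 4e-05, adjusted p = 0.0060) and an r of 0.626 (permutation p = 0.00055, adjusted p = 0.0147), or 0.548 without the 2 pools farthest from the TCF7L1 median. From APC the adjusted p was 0.0638, so the pair did not pass from both sides. This relation remained past the threshold from TCF7L1 without pool 9, with a rho of 0.703, and without pool 31, with a rho of 0.696, each with an adjusted p of 0.0155. For the other 3 the rho from TCF7L1 was 0.589 for ZNRF3 (adjusted permutation p = 0.0377), 0.576 for GSK3B (adjusted permutation p = 0.0460) and 0.574 for AXIN1 (adjusted permutation p = 0.0488). Their r was 0.674, 0.662 and 0.509, with adjusted permutation p of 0.00721, 0.00865 and 0.0630, and without the 2 farthest pools it was 0.703, 0.514 and 0.495. Without pool 9 none of the 3 passed, and without pool 31 AXIN1 alone did. From their own side, the adjusted p of each of the 3 was above 0.15.

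Of the 64 further pathway genes, 8 were called from TCF7L1 and all had a positive rho. The highest were the acetyltransferases CREBBP and EP300, which work with β-catenin in the nucleus among many other factors, with a rho of 0.783 and 0.700, and the planar polarity gene VANGL1 with 0.691. Their adjusted permutation p was 0.00473, 0.0110 and 0.0079, and their r was 0.692, 0.704 and 0.652 (permutation p = 0.00013, 4e-05 and 0.00029). The other 5 were the co-repressors TLE3 and TLE4, which bind TCF factors, the kinases GSK3A and CSNK1E, and the polarity gene SCRIB. Without pool 9, SCRIB and GSK3A were not called (adjusted permutation p = 0.0852 and 0.105), and without pool 31, SCRIB and CSNK1E were not (adjusted permutation p = 0.0678 and 0.0876). EP300 was also the gene nearest to APC of all retained genes, with a rho of 0.824 (adjusted permutation p = 0.0308) and an r of 0.663 (adjusted permutation p = 0.0962). Over all retained genes the nearest to TCF7L1 were the motor protein genes MYO1D and DYNC1H1, with a rho of 0.842 and 0.841, and the splicing factor gene SRRM2 with 0.831. At the far end were NPM1, a nucleolar protein gene, with -0.811 and CCT2, a chaperonin subunit gene, with -0.810. The r of these 5 was 0.783, 0.823, 0.847, -0.858 and -0.816, each with an adjusted permutation p of 0.00251.

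FZD6 in turn had 196 called genes, which is 1.59%, 91 positive and 105 negative. There were 48 without pool 9, 63 without pool 31 and 165 with r. Its nearest gene was TARS1, a transfer RNA ligase, with a rho of 0.806 and an r of 0.782 (adjusted permutation p = 0.0154 and 0.0308), and CCT2 followed with 0.794 and 0.736. The lowest were FHOD1, an actin regulator, with a rho of -0.824 and an r of -0.734, and LAMC1, a laminin chain, with -0.791 and -0.653.

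**Figure D5:**
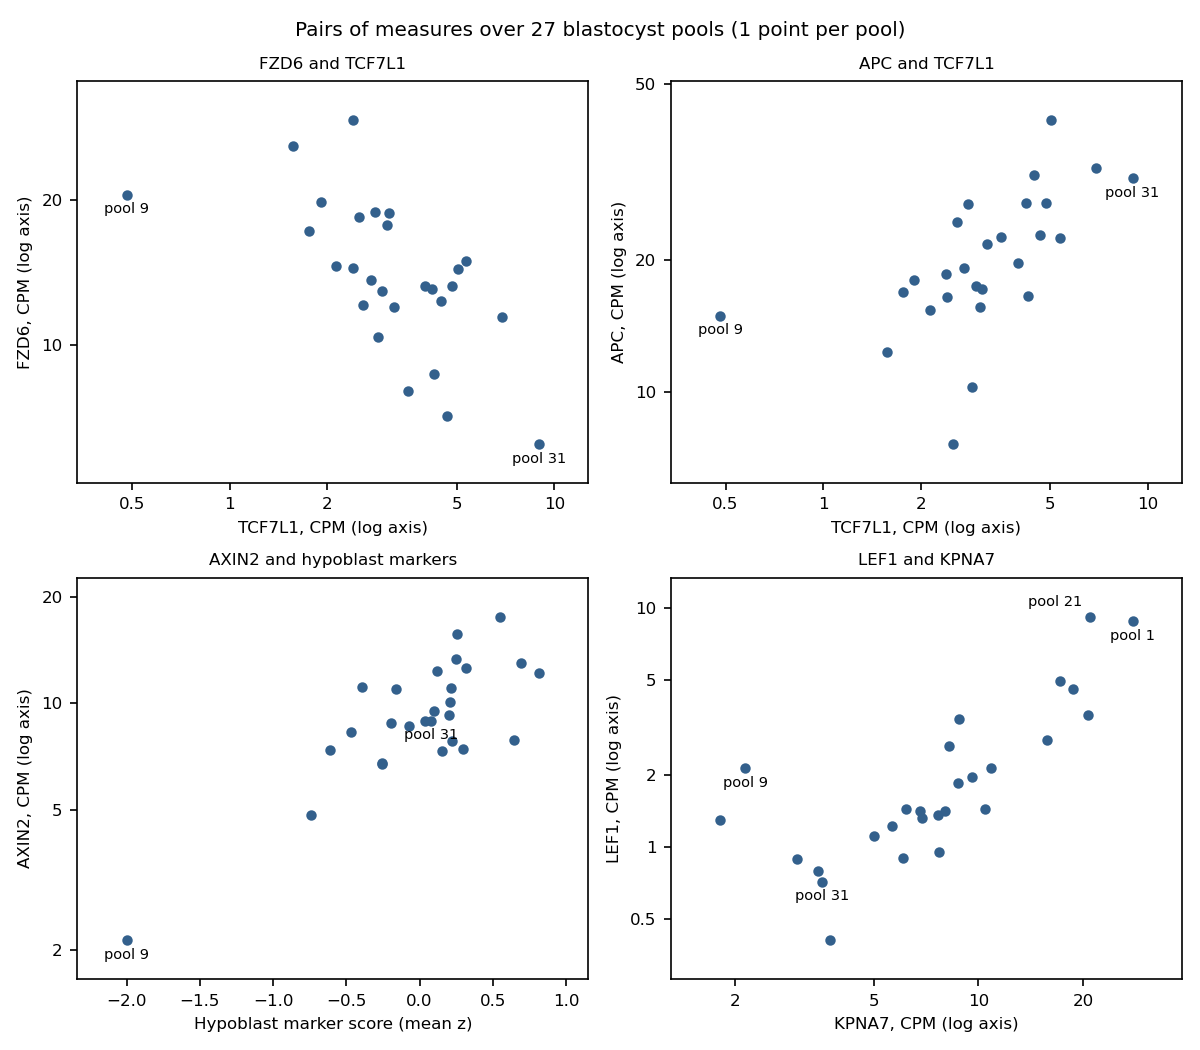
Scatter plots over the 27 pools, 1 point per pool, for FZD6 and APC against TCF7L1, AXIN2 against the hypoblast marker score and LEF1 against KPNA7, with CPM on log axes and the score on a linear axis. FZD6 falls and APC rises with TCF7L1, pool 9 lies alone at the bottom left of the AXIN2 plot, and pools 1 and 21 lie at the top right of the LEF1 plot.

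LEF1 had 26 called genes, which is 0.211%, and 25 of them had a positive rho. The nearest was the homeobox gene MSX1, with a rho of 0.841 and an r of 0.882 (both with the smallest permutation p, 1e-05, adjusted p = 0.00947 and 0.00684), or an r of 0.796 without the 2 pools farthest from the LEF1 median. KPNA7, an importin gene, followed with a rho of 0.835 and an r of 0.80, or 0.729 without those pools. The other 8 of the 10 nearest were, in order, TESC, LOC100301263, CIART, RGS2, BCL2L10, LOC513055, PABPN1L and WEE2, with a rho from 0.823 down to 0.786 and an r between 0.737 and 0.851, all past the threshold. Pool 1 had the highest level of KPNA7 with 27.7 CPM, of WEE2 with 21.4 CPM and of MSX1 with 26.6 CPM, against medians of 7.70, 6.96 and 9.15 CPM. Pool 21 was the second highest for KPNA7 and MSX1. Leaving out pool 9 gave 38 called genes, leaving out pool 31 gave 19, and r gave 40. The other 3 TCF/LEF genes were not called against LEF1.

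DVL2, the gene with the lowest spread for its level, had 40 called genes, or 0.325%. They were led by RXRB, a retinoid receptor partner, with a rho of 0.869 and an r of 0.845 (adjusted permutation p = 0.0137 and 0.0123), and included YAP1, the Hippo pathway co-activator, with 0.769 and 0.707. For DVL2 there were 12 without pool 9, 90 without pool 31 and 153 with r. DKK1 had 65, or 0.528%, led by TENT2, a poly(A) polymerase, with a rho of 0.820 and an r of 0.752 (adjusted permutation p = 0.0284 and 0.0176). There were 74 without pool 9, 153 with r and none without pool 31, where TENT2 still had a rho of 0.801, with an adjusted permutation p of 0.0856. CTNNB1, APC and FZD4 had 8 called genes each, or 0.065%, and LGR4 had 9, or 0.0731%. Without pool 9 or without pool 31 CTNNB1 and APC had none, and without pool 9 FZD4 and LGR4 had none. A gene alone at the smallest possible p, 1e-05, could not pass over 12309 tests. A count of none therefore does not mean that the relations were lost. MELK had a rho of 0.791 with CTNNB1, and 0.836 without pool 9 (permutation p = 1e-05, adjusted p = 0.0895). EP300 had a rho of 0.815 with APC without pool 31 (permutation p = 1e-05, adjusted p = 0.0821). Without pool 31 FZD4 had 11 and LGR4 had 3. With r LGR4 had 80, CTNNB1 had 6, and APC and FZD4 had none. The other 19 retained genes had none with rho over all 27 pools. Of these, WLS had 18 without pool 9, and with r ZNRF3 had 205, AXIN2 86, WLS 15 and WNT5B 3.

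AXIN2 was set against all retained genes as the gauge of pathway activity. None of 12309 genes passed (0%), although 12.6% had an unadjusted permutation p of 0.05 or less, and with Pearson's r 86 passed. None of the 27 other retained WNT genes passed with either measure. An unadjusted permutation p of 0.05 was reached by 1 of them with rho and by 7 with r. That gene was WNT5B, with a rho of -0.480 (permutation p = 0.0124, adjusted p = 0.286) and an r of -0.536 (permutation p = 0.00302, adjusted p = 0.0961), or -0.390 without the 2 pools farthest from the AXIN2 median. None of the 64 further genes passed, the known targets of β-catenin included. By positive rho, the 5 genes nearest to AXIN2 were PXMP2, a peroxisomal membrane protein, SEPTIN9, TADA2B, CCDC71 and FN1. Their rho was 0.748, 0.742, 0.742, 0.738 and 0.711, with an adjusted permutation p between 0.0821 and 0.0889. Their r was 0.751, 0.671, 0.686, 0.646 and 0.796, with an adjusted permutation p between 0.0154 and 0.0396. FN1, the fibronectin gene, is on the hypoblast list. At the negative end, TUBA4A and CKS1B had a rho of -0.737 and -0.733 (both with an adjusted permutation p of 0.0821). Their r was -0.730 and -0.488, with an adjusted permutation p of 0.0205 and 0.153.

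The pools differ in their cell makeup, so the 28 genes were set against scores of lineage markers, each the mean z of log2(CPM + 1) of the retained markers of a list. These and AXIN2, the total count and a pair of RNA measures made 8 measures in all. The trophectoderm score rested on 12 markers whose sum was between 16985 and 41871 CPM, the epiblast score on 10 with a sum between 300 and 972 CPM, and the hypoblast score on 9 with a list sum between 399 and 1723 CPM.

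None of the 28 genes passed against the trophectoderm score, while 4.75% of all genes did, and 5 had an unadjusted permutation p of 0.05 or less, beside 21.3% of all genes. With r the counts were 0 and 6. The lowest adjusted p was that of DKK1, with a rho of -0.503 (permutation p = 0.00817, adjusted p = 0.0925) and an r of -0.542 (permutation p = 0.0037, adjusted p = 0.0575), or -0.508 without the 2 farthest pools. The others were SFRP1, ZNRF3 and TCF7L1, with a rho of 0.468, 0.420 and 0.384, and FZD6 with -0.436. FZD6 and TCF7L1, the called pair, thus had opposite signs here (adjusted permutation p = 0.158 and 0.233). The part of the trophectoderm share in their relation was not tested. Of the further pathway genes 4 of 64 passed. CSNK1A1 had a rho of -0.700 and an r of -0.662 (adjusted permutation p = 0.0150 and 0.0154). The β-catenin co-activators BCL9 and BCL9L and the remodeller SMARCA4 had a rho of 0.619, 0.689 and 0.640 (adjusted permutation p = 0.0286, 0.0102 and 0.0196) and an r of 0.458, 0.630 and 0.619.

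None of the 28 passed against the epiblast score, and nor did any of the other genes (0%). An unadjusted permutation p of 0.05 was reached by 2 of them with rho and by 1 with r, beside 6.15% of all genes with rho. They were AXIN2, with a rho of 0.430 (adjusted permutation p = 0.761) and an r of 0.360, and FZD3, with a rho of -0.393 (adjusted permutation p = 0.807) and an r of -0.407.

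Against the hypoblast score none of the 28 passed with rho (0.0406% of all genes did), 8 had an unadjusted permutation p of 0.05 or less, beside 14.2% of all genes, and with r 1 passed. That gene was AXIN2, with a rho of 0.612 (permutation p = 0.00101, adjusted p = 0.118) and an r of 0.787 (permutation p = 4e-05, adjusted p = 0.0197), or 0.486 without the 2 pools farthest from the median score. Pool 9 had the lowest score and the lowest AXIN2 level, and without it r was 0.588 with an adjusted p of 0.359. The other 7 were LGR4, ZNRF3, DVL3, APC and GSK3B with positive rho and WNT5B and FZD1 with negative rho, and all lay between -0.491 and 0.444.

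The leukocyte list held genes known from white blood cells, and their sum was between 17 and 112 CPM. Its members differed in level. CD52 had a median of 13.2 CPM, whereas LAPTM5 and RAC2 had 0.0226 and 0.0951 CPM. The T cell genes CD3E, CD3D and CD2, with medians of 0.900, 0.841 and 0.449 CPM, were not retained, whereas CD247, with 1.65 CPM, was. Whether these reads came from leukocytes or from cells of the embryo was not tested. None of the 28 genes passed against the score of the 7 retained markers (0.805% of all genes did), and 7 had an unadjusted permutation p of 0.05 or less, or 8 with r, beside 7.67% of all genes with rho. The highest rho was that of TCF7, at 0.580 (permutation p = 0.00176, adjusted p = 0.165), with an r of 0.60 (permutation p = 0.00081, adjusted p = 0.0744), or 0.538 without the 2 farthest pools. LEF1 followed with a rho of 0.548 and an r of 0.458 (adjusted permutation p = 0.268 and 0.326), and both are genes that T cells express. ZNRF3 had the lowest, at -0.539, with an r of -0.570 (adjusted permutation p = 0.289 and 0.143). The part of such cells in the TCF7 and LEF1 levels was not tested.

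None of the 28 passed against the total count, and none had an unadjusted permutation p of 0.05 or less with rho or r, beside 3.36% of all genes with rho. Against the share of reads from 74 ribosomal protein genes, which was chosen after the values were seen, none passed (0.0654% of all genes did) and 6 had an unadjusted permutation p of 0.05 or less, with rho and with r, beside 13.1% of all genes with rho. The lowest rho was that of CTNNB1, at -0.660 (permutation p = 0.00033, adjusted p = 0.0841), with an r of -0.584 (permutation p = 0.00143, adjusted p = 0.111), or -0.628 without the 2 farthest pools. Against the number of genes detected, PORCN alone of the 28 had an unadjusted permutation p of 0.05 or less with rho, at 0.626 (permutation p = 0.00059, adjusted p = 0.246) and an r of 0.569 (permutation p = 0.00203, adjusted p = 0.0984), or 0.583 without the 2 farthest pools. There 4 reached it with r, and 10.6% of all genes did with rho.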

How the data were processed

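Libraries were 3′ RNA-seq (SMART-Seq v4 3′ DE, Nextera XT) of 27 pools of 2 bovine blastocysts. Before deposit, the authors used fastp for trimming, STAR for mapping (build ARS-UCD2.0) and featureCounts for counting, and the deposited values are raw counts per gene and pool. Tool versions, the annotation release and the strand setting are not given in the sources used here. CPM used column totals, and genes at 1 CPM in 12 of 27 pools were kept. The BCV came from edgeR 4.0.16 (intercept only, TMM, no shrinkage) in R 4.3.3, with DESeq2 1.42.0 as an alternative. Permutation tests (100000, two-sided) ran in numpy 2.4.6, were adjusted by Benjamini-Hochberg over all retained genes, and called at an adjusted p of 0.05. P-values come from shuffling all pools freely. The paper states that blastocysts were pooled within a treatment and replicate, so different pools can share a culture. The labels do not say which do, the shuffling ignores it, and the p-values may therefore be too small. Scripts were tested on simulated data.

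All 44 genes were named, with the 3 highest of each further role, genes passing against AXIN2 and the 5 genes nearest to it by positive rho. Other nearest genes were chosen after their values were seen. The genes and lists were chosen with earlier results of these data known. Coordinates are from RefSeq (ARS-UCD2.0), which matched all 44 symbols. Sequences were not used here. The epiblast marker TDGF1 was matched by its current symbol CRIPTO, and 1 epiblast marker, DPPA5, was not matched.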

Additional observations from a re-analysis of the deposited data

How the results depend on the processing

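Of 67 alternatives to the counts of genes and pairs given above, 55 left the count within 1.5 times and 12 did not. Most of the 55 were counts of 0 that stayed at 0, for the genes correlated with AXIN2, the cell type scores and the total count. For the retained genes, 3 alternatives stayed within this range and 2 did not. For the spread 1 stayed and 3 did not, and for the correlated pairs 2 stayed and 5 did not. The number of retained genes was 12 when 1 CPM was required in all 27 pools and 44 with no filter. The number of genes with a spread above the trend was 0 at 2 times the trend, 6 with no filter and 1 with DESeq2. The number of correlated pairs was 2 with Pearson's r at a pseudocount of 1 and of 0.1, 0 with no filter, and 0 without pool 9 and without pool 31, alternatives chosen after seeing the data. The number of genes correlated with the hypoblast score was 1 with r at either pseudocount. The cause of these shifts was not tested. Of the 10 highest genes, 9 were the same by mean CPM and 10 with TMM. TCF/LEF motif searches and CPM per kb were not run, since promoter sequences and transcript lengths were not used here. No paired analysis was possible because the labels give the pools no group. Depth limits values under 0.285 CPM.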
